A study of Mus musculus with 8 samples.

Results

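The clade B serpins were described in mouse pancreatic ductal adenocarcinoma (PDAC) cells, in which Smad4 can be switched on or off. Members were all genes of the count table named Serpinb followed by a number, 28 of 53465 genes. All of them lay in 1 of 2 clusters, 12 genes over 0.75 Mb of chromosome 1 (106861173 to 107610484) and 16 genes over 1.16 Mb of chromosome 13 (32842092 to 34002794, GRCm38). With detection set at 10 or more counts in at least 2 libraries, 14 members were detected, 3 on chromosome 1 and 11 on chromosome 13. The cells were 2 lines from primary pancreatic tumors of the KC-shSmad4 mouse model, B73 and B87, and each line was measured once in each of 4 conditions, which gave 8 libraries. All groups share the model's alleles, among them Cre driven by *Ptf1a*, a Rosa26 LSL-rtTA3-IRES-mKate2 allele and a doxycycline (Dox)-inducible, GFP-linked Smad4 short hairpin RNA at *Col1a1*. The labels do not say which Smad4 hairpin each line carries. Smad4-off cells were kept on Dox, and Smad4-on cells were without Dox for 5 days. Both then received, for 24 h, either 100 pM mouse TGFβ1 or 2.5 µM SB505124, which inhibits the TGFβ type I receptor kinase. There was no untreated group, so each TGFβ1 effect is relative to the inhibitor, and the Smad4 state cannot be told apart from the presence of Dox.

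Serpins inhibit proteases by offering a loop as bait, and the protease that cuts it is trapped on the serpin in a covalent complex. Clade B serpins lack a classical signal peptide and mostly act inside cells, where they are known for limiting the damage done by granule proteases and by cathepsins that leak from lysosomes. Epithelia and leukocytes are their best-known sites. In mouse, *Serpinb1*, *Serpinb6* and *Serpinb9* each expanded into several paralogs on chromosome 13, while human has 1 gene of each. SMAD4 is the shared partner of the receptor-activated SMAD proteins and carries much of the transcriptional response to TGFβ.

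Libraries held 18389235 to 23440550 counts, at which 3 counts, taken as the smallest detectable level, are 0.128 to 0.163 CPM (counts scaled to a common library total). Smad4 mRNA, the target of the hairpin, was at 33.7 to 35.5 CPM in the 4 Smad4-off libraries and 97.4 to 117 CPM in the 4 Smad4-on libraries. All 7 epithelial markers were detected, with a summed level of 3870 to 6180 CPM in B73, against 1170 to 2070 CPM in B87. Immune markers summed to 1.73 to 6.64 CPM, with 1 of 12 at 10 or more counts in 2 libraries and *Cd3e*, *Cd8a*, *Nkg7*, *Adgre1* and *S100a9* at 0 throughout. Squamous markers summed to 4.34 to 10.3 CPM, with *Krt6a*, *Krt1* and *Dsg3* at 0, acinar markers to 0.408 to 1.33 CPM and endothelial markers to 0.648 to 26.0 CPM. Fibroblast markers, with *Lum* at 0, summed to 4.0 to 8.93 CPM in the B73 libraries. In B87 they summed to 43.9 (off) and 152 CPM (on) with SB505124 and to 184 and 647 CPM with TGFβ1, so in that line the sum moved with both Smad4 and TGFβ1, and its part in the B87 values given for the members was not tested. In bulk RNA, fewer cells of a type and less RNA per cell cannot be told apart.

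Start-site windows of 300 bases (250 before and 50 after the RefSeq start, GRCm38.p6) were matched for 25 members, 13 of them detected. The windows of 4 *Serpinb9* paralogs were nearly the same sequence although the genes differed greatly in level, and they are shown for that reason. *Serpinb9g* (chr13:33484540-33484839, plus strand) and *Serpinb9e* (chr13:33249358-33249657, plus) were identical at 94.7% of the 300 bases, *Serpinb9g* and *Serpinb9f* (chr13:33323827-33324126, plus) at 92.3%, and *Serpinb9g* and *Serpinb9d* (chr13:33192705-33193004, plus) at 91.3%. Capitals mark bases that were not identical to the *Serpinb9e* window (in *Serpinb9g*, 16 bases) or to the *Serpinb9g* window (in *Serpinb9e*, 16 bases, in *Serpinb9f*, 23, and in *Serpinb9d*, 26), counting ends that stand out because the annotated starts are offset.
Serpinb9g: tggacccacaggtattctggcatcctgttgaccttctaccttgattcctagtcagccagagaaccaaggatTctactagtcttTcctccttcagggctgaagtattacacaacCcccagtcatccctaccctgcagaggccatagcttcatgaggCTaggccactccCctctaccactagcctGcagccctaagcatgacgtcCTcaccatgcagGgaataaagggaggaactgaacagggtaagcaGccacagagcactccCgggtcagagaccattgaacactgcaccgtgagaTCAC
Serpinb9e: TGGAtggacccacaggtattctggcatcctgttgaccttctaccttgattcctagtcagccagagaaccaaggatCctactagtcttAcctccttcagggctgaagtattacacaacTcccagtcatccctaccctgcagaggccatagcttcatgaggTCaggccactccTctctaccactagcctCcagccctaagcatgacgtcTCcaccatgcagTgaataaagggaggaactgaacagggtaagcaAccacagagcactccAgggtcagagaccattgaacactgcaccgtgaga
Serpinb9f: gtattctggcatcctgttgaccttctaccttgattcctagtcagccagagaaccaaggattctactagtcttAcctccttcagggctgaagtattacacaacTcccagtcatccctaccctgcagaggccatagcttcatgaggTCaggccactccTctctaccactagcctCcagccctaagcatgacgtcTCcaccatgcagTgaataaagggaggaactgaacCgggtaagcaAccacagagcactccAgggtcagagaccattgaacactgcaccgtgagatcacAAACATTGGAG
Serpinb9d: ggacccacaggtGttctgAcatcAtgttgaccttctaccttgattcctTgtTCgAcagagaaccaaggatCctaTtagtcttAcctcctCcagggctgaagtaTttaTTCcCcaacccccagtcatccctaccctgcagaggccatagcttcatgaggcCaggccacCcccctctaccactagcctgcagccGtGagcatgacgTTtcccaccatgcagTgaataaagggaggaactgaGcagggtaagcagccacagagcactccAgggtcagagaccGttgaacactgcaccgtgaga
The highest level of *Serpinb9g* was 384 CPM, against 1.03 CPM for *Serpinb9e*, 0.408 CPM for *Serpinb9d* and 0.343 CPM for *Serpinb9f*, genes of nearly the same annotated length apart from the shorter *Serpinb9d*. Of the 75-base stretches of their transcripts, 44.9% (*Serpinb9g*), 17.5% (*Serpinb9e*), 16.8% (*Serpinb9d*) and 65.5% (*Serpinb9f*) also occur in other genes. The treatment of multiply aligned reads is not given, so these levels are uncertain to that extent.

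**Figure D1:**
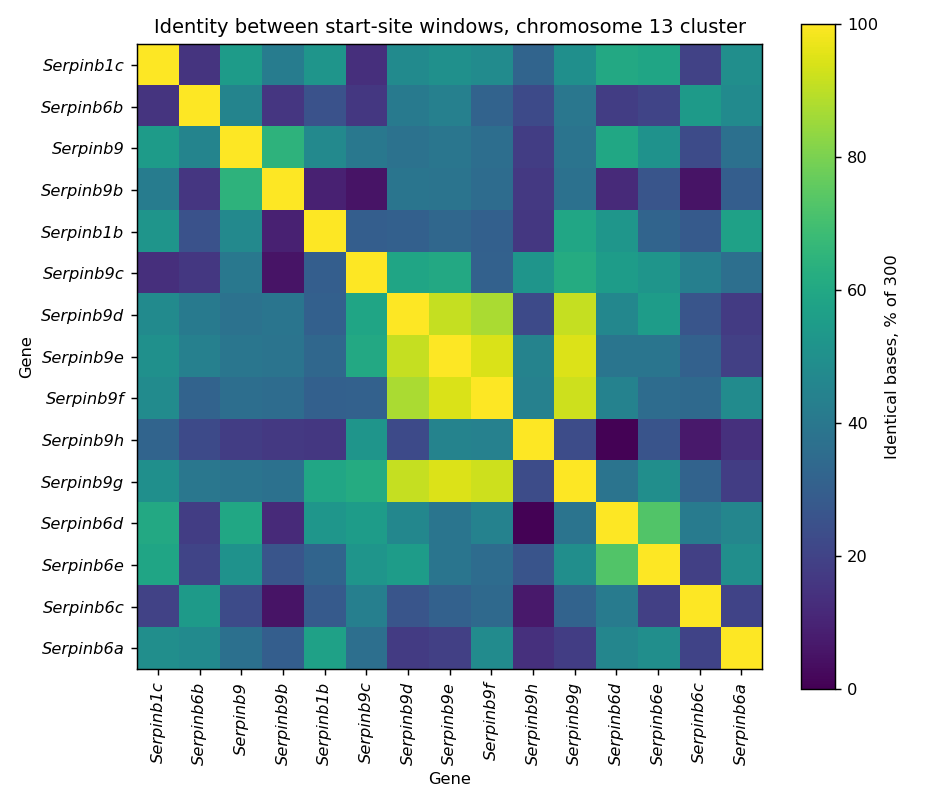
Identity between the 300-base start-site windows of the chromosome 13 genes, in order along the chromosome, as the share of 300 bases identical in a global alignment with free ends (colour, 0 to 100%). *Serpinb9d*, *Serpinb9e*, *Serpinb9f* and *Serpinb9g* form a block of 87.3% to 94.7% identity, while *Serpinb9h*, a further paralog that the name rule does not take in, lies between *Serpinb9f* and *Serpinb9g* and outside the block.

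The windows of the 3 detected chromosome 1 genes are shown because these genes did not all respond alike. *Serpinb5* and *Serpinb2* were highest with Smad4 on and TGFβ1, and *Serpinb8* was lower with TGFβ1. Capitals mark GTCT on either strand, a short core that SMAD proteins are known to bind, in *Serpinb5* (chr1:106860925-106861224, plus, 3 matches) and *Serpinb2* (chr1:107511173-107511472, plus, 2 matches), and TGACTCA on either strand, the AP-1 motif, in *Serpinb8* (chr1:107589756-107590055, plus, 2 matches, starting at -23 and 13 from the start site).
Serpinb5: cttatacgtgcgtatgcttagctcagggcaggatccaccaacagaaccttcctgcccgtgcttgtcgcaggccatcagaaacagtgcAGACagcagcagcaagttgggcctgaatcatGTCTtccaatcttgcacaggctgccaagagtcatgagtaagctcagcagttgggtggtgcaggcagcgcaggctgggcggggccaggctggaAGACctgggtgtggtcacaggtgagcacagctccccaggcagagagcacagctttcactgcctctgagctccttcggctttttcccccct
Serpinb2: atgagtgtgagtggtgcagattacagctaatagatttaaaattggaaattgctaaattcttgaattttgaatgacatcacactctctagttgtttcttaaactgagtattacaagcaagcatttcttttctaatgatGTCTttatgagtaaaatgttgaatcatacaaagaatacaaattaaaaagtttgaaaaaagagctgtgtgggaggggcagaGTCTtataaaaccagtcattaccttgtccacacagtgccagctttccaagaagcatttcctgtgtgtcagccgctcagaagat
Serpinb8: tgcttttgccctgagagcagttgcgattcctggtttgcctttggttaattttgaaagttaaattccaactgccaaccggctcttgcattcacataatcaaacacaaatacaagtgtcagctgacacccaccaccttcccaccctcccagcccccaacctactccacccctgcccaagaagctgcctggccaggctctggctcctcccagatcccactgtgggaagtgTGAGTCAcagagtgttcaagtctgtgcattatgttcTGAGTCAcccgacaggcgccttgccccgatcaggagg
The *Serpinb8* window also holds 1 GTCT, which is not marked, so GTCT does not set the 3 windows apart. A further RefSeq start of *Serpinb2* (window chr1:107511260-107511559, plus, not shown) has 3 matches of GTCT. Of 32851 RefSeq windows of this length, 88.0% hold GTCT, with a median of 2 matches, and 5.20% hold TGACTCA. *Serpinb8* was the only detected member with TGACTCA in its window, and the palindrome GTCTAGAC (0.213% of windows) was found in no member. GGCGCC, also searched for (11.9% of windows), was found in *Serpinb8* (1 match) and in no other member with a window. CAGACA (21.0% of windows) was found in *Serpinb5* (1 match) and not in the *Serpinb2* or *Serpinb8* window. A match describes the letters of the window and is not a binding site.

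Most of the clade B signal came from 4 chromosome 13 genes. Per kb of exon, *Serpinb6a* had the highest median over the 8 libraries, 133 CPM per kb with a range of 105 to 176. *Serpinb6b* (40.7 to 157, median 76.2) and *Serpinb9b* (40.7 to 167, median 76.0) followed with ranges that overlap almost wholly, then *Serpinb9* (11.1 to 53.8, median 29.4) and *Serpinb1a* (1.53 to 41.6, median 8.76). *Serpinb8* ran from 1.81 to 6.63 CPM per kb, and *Serpinb9g* spanned the widest range, from 0 to 199. The members' summed level was 1493, 1450, 2216 and 1479 CPM in B73 (Smad4 off and on with SB505124, then off and on with TGFβ1) and 1062, 913.1, 1680 and 1407 CPM in B87. In both lines the Smad4-off TGFβ1 library was highest. *Serpinb6a* held 34.2% to 65.3% of this sum. *Serpinb9g* held 11.6% and 17.3% in the B73 Smad4-off libraries, 0.505% and 1.32% in those of B87, and at most 0.0966% in any Smad4-on library.

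**Figure D2:**
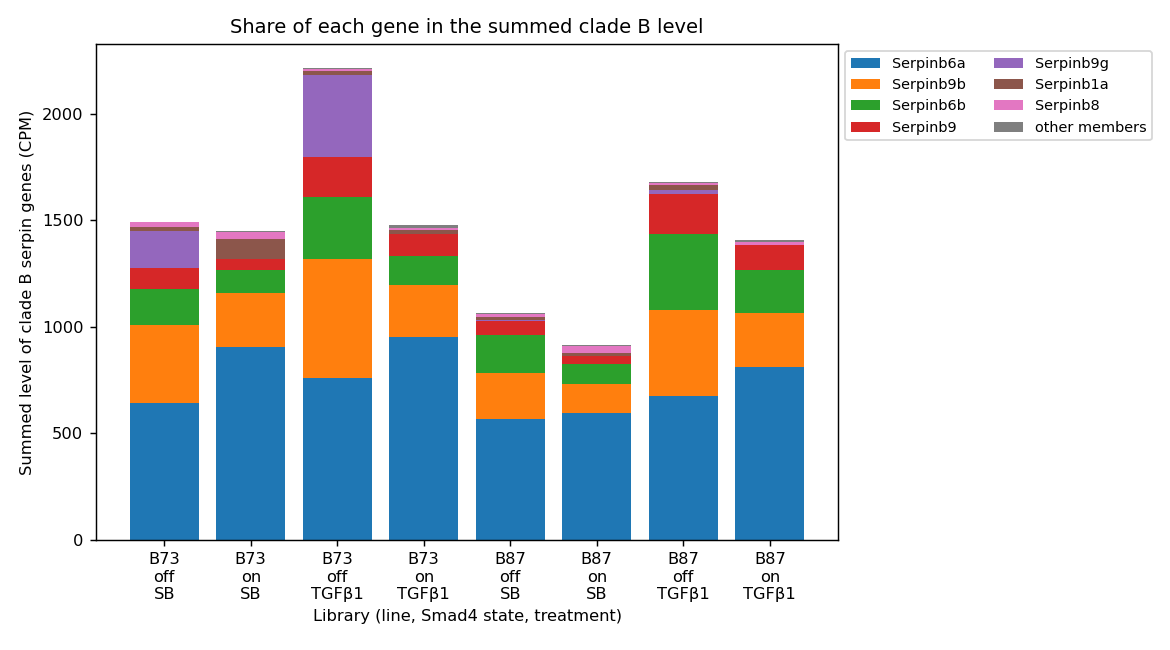
Summed CPM of the clade B serpin genes in each library (bar height), split by gene, with the 4 B73 libraries on the left and the 4 B87 libraries on the right. The *Serpinb9g* segment fills 17.3% of the B73 Smad4-off TGFβ1 bar and cannot be seen in the Smad4-on bars.

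The 14 members that were not detected fell into 2 kinds. *Serpinb12*, *Serpinb13*, *Serpinb3a*, *Serpinb3b*, *Serpinb3c* and *Serpinb3d* on chromosome 1 and *Serpinb6d* and *Serpinb6e* on chromosome 13 had 0 counts in every library, which allows up to 3 counts each. *Serpinb3* and *Serpinb13* genes are best known from squamous epithelium. *Serpinb7*, *Serpinb10* and *Serpinb11* on chromosome 1 and *Serpinb1-ps1*, *Serpinb9d* and *Serpinb9f* on chromosome 13 had at least 1 count in some library, and the highest of these counts was 8.

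**Figure D3:**
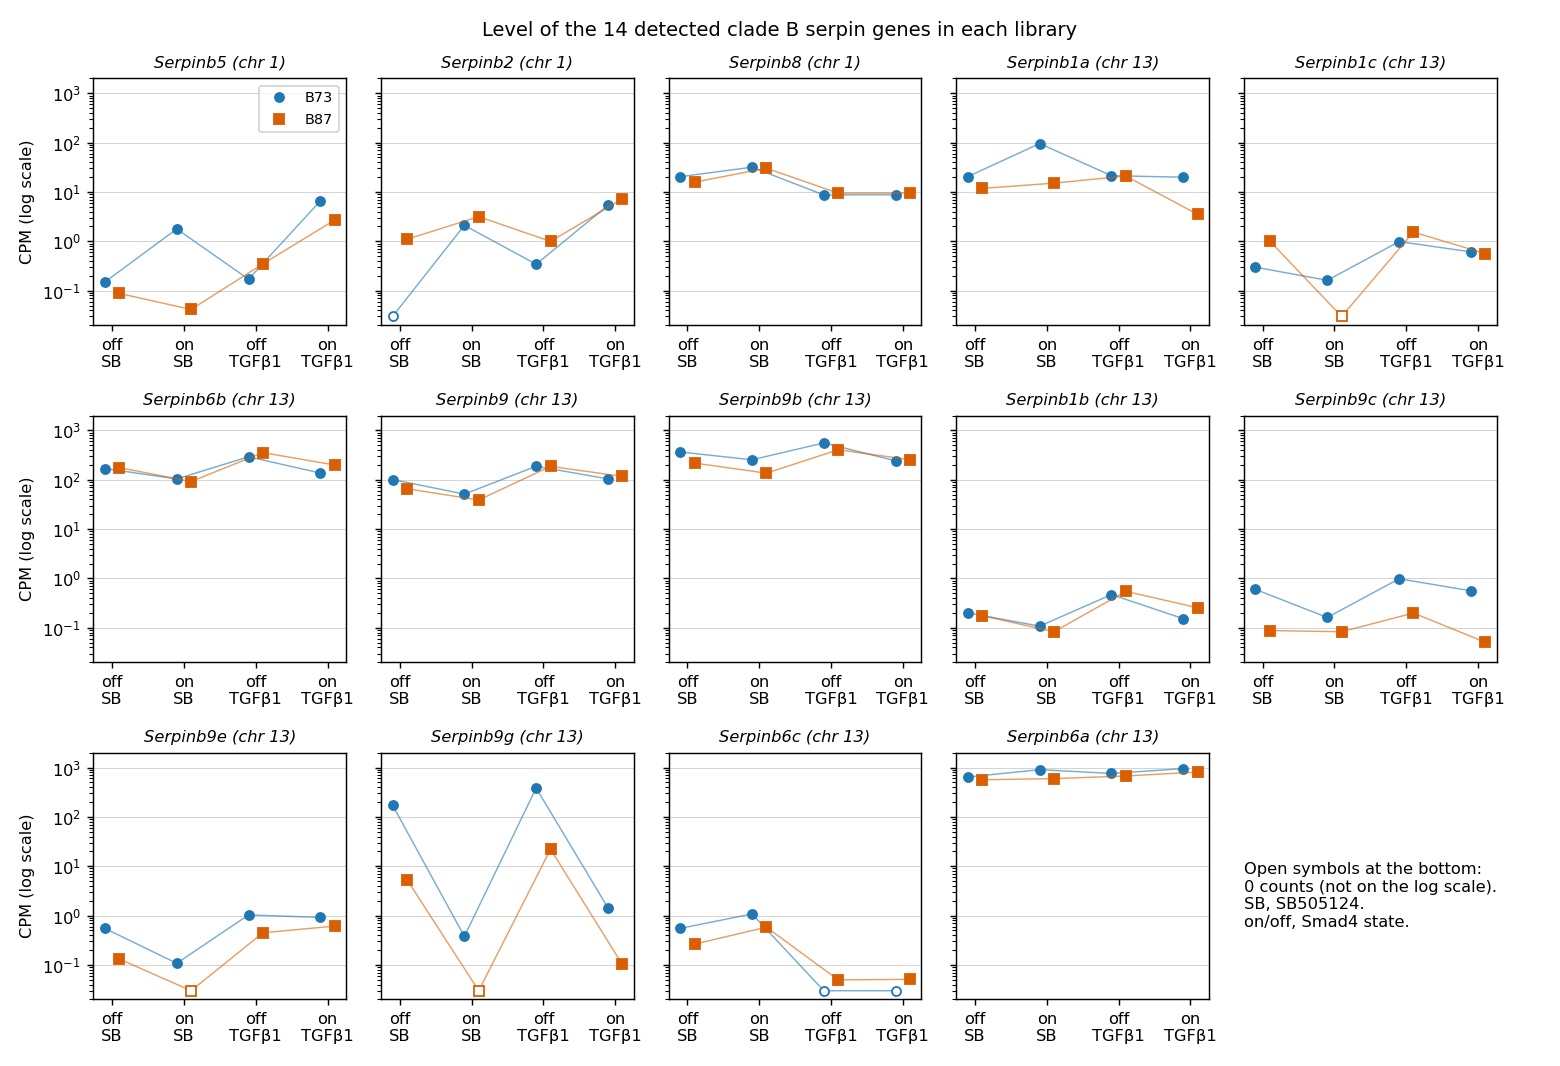
Level of each of the 14 detected members in the 8 libraries, in CPM on a log scale (circles, B73; squares, B87; open symbols at the bottom, 0 counts). Lines join libraries of the same cell line. *Serpinb9g* falls in both lines whenever Smad4 is on, *Serpinb8* falls with TGFβ1, and *Serpinb6a* stays between 566 and 952 CPM.

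Tests used edgeR's quasi-likelihood F-test on all 14301 genes that passed the filter on low counts, with the line in the model, and a gene was called at a Benjamini-Hochberg adjusted p under 0.05 and a change over 2-fold. All 14 detected members were tested. Switching Smad4 on with TGFβ1 present gave 2 members called higher and 1 called lower, against 1.31% and 1.80% of all genes. With SB505124, none was called higher and 1 lower, against 0.636% and 0.455%. Comparing TGFβ1 with SB505124 in Smad4-on cells, 3 were called higher and 3 lower (5.62% and 8.31% of all genes), and in Smad4-off cells 2 higher and 0 lower (3.11% and 2.82%). These comparisons share libraries, so they are not independent of each other. The median log2 fold change over the 14 members was -0.83 for Smad4 with TGFβ1 and -0.70 with SB505124, beside -0.01 and 0.00 over all tested genes. It was 1.10 for TGFβ1 in Smad4-on cells and 0.85 in Smad4-off cells, beside -0.02 over all genes in both. With the filter on low counts, edgeR called no member in the interaction of Smad4 and TGFβ1 (0.0559% of all genes higher, 0.133% lower). DESeq2, run without that filter, called no member with or without the line, and with the line 37 genes higher and 98 lower. In edgeR, 3 of 14 members had an unadjusted p under 0.05 (*Serpinb8*, *Serpinb1a* and *Serpinb9e*), as had 1493 of the 14301 genes. The libraries of a group came from 2 lines and nothing says that they were otherwise separate, so the p-values measure the spread that remains between lines.

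**Figure D4:**
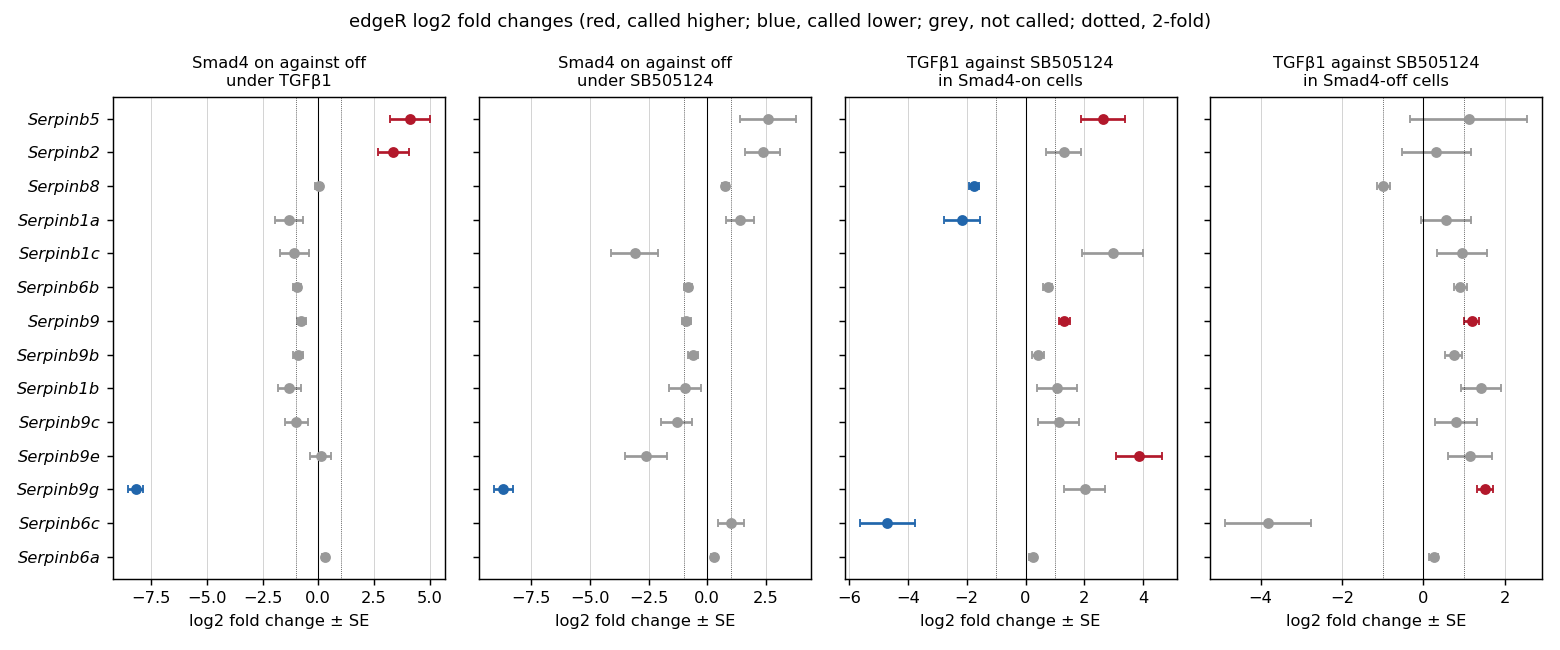
Log2 fold change ± SE (edgeR, 8 libraries) of the 14 detected members in the 4 comparisons, chromosome 1 genes first, with a horizontal scale of its own in each panel. Called genes are coloured, red for higher and blue for lower, and *Serpinb6c* is left out of the first panel because all 4 of its libraries there held 0 or 1 count. *Serpinb9g*, at -8.20 and -8.70, is the lowest point of both Smad4 panels.

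*Serpinb9g* is a paralog of *Serpinb9*, the intracellular inhibitor of granzyme B, and it was the member that changed most with Smad4. In B73 its level was 173 CPM in Smad4-off and 0.378 CPM in Smad4-on cells with SB505124, and 384 and 1.43 CPM with TGFβ1. In B87 the same 4 values were 5.36, 0, 22.2 and 0.102 CPM. Every Smad4-off library lay above every Smad4-on library, and *Serpinb9g* fell in both lines, although they were far apart in level. With 2 and 0 counts in the B87 Smad4-on libraries, the size of the fall there cannot be compared closely with that in B73. The log2 fold change was -8.20 ± 0.33 (SE) with TGFβ1 (edgeR adjusted p 0.00073) and -8.70 ± 0.41 with SB505124 (0.00103), and the interaction was 0.50 ± 0.75 (adjusted p 0.871). In counts, the B73 level was 269-fold lower with TGFβ1 (8961 against 28 counts, 95% Clopper-Pearson interval 186 to 405) and 458-fold lower with SB505124 (222 to 1140). The B87 level was 218-fold lower with TGFβ1 (446 against 2 counts, 60 to 1800) and, with 0 counts in Smad4-on cells, at least 34.4-fold lower with SB505124. These intervals cover counting error only.

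In Smad4-off cells *Serpinb9g* was higher with TGFβ1, 2.22-fold in B73 and 4.15-fold in B87 (log2 fold change 1.51 ± 0.20, edgeR adjusted p 0.00475). In Smad4-on cells it was not called (2.01 ± 0.71, adjusted p 0.0697), with 28 against 7 counts in B73 and 2 against 0 in B87. Leaving out any library kept all 3 of these calls. Dropping the replicate block gave adjusted p-values of 0.268 and 0.768 for Smad4 and 0.80 for TGFβ1 in Smad4-off cells, since the fit then counts the difference between the lines as error. DESeq2 with no replicate block kept both Smad4 calls (adjusted p 0.0203 and 0.0262) and not the TGFβ1 call (0.919). The difference between the lines was the largest of any member, at -4.50 ± 0.21 for B87 against B73 (edgeR adjusted p 4.7e-05). Of the 75-base stretches of its transcript, 44.9% also occur in transcripts of other genes, 38.1% in *Gm11397* (*Serpinb9h*), which had 0 counts in every library, so the division of reads among these copies is uncertain.

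*Serpinb9*, *Serpinb9b* and *Serpinb6b*, which lie close together nearer the start of the cluster, were lower in Smad4-on cells in both lines and both treatments, by less than 2-fold in the fit. *Serpinb9* was at 101 (off) and 51.2 CPM (on) with SB505124 and at 188 and 104 CPM with TGFβ1 in B73, and at 65.6, 38.9, 187 and 117 CPM in B87. *Serpinb9b*, another relative of the granzyme B inhibitor, was at 366, 254, 558 and 242 CPM in B73 and at 218, 136, 405 and 255 CPM in B87 in the same order. *Serpinb6b*, one of the *Serpinb6* paralogs, was at 169, 104, 292 and 137 CPM in B73 and at 176, 92.1, 355 and 199 CPM in B87. For each of the 3 genes the Smad4-off TGFβ1 library was the highest of its line, and the Smad4-on SB505124 library was the lowest except for *Serpinb9b* in B73, where the Smad4-on TGFβ1 library was slightly lower. The Smad4 effect with TGFβ1 was -0.75 ± 0.18 for *Serpinb9* (edgeR adjusted p 0.0559), -0.91 ± 0.21 for *Serpinb9b* (0.0519) and -0.95 ± 0.16 for *Serpinb6b* (0.0188), so that *Serpinb6b* passed the p threshold and not the fold. With SB505124 the adjusted p-values were 0.0893, 0.308 and 0.0755.

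TGFβ1 raised *Serpinb9* in both Smad4 states. The log2 fold change was 1.31 ± 0.19 in Smad4-on cells (edgeR adjusted p 0.00255; 2.03-fold in B73, 3.01-fold in B87) and 1.19 ± 0.19 in Smad4-off cells (0.00876; 1.85-fold and 2.85-fold). The first call held without any single library and without the replicate block (0.0204). The second was lost without the block (0.0759) and without either B87 Smad4-off library, where the highest adjusted p was 0.0718. *Serpinb6b* passed the p threshold in both states (0.75 ± 0.16, adjusted p 0.0124, and 0.90 ± 0.16, adjusted p 0.0139) at less than 2-fold. *Serpinb9b* did not pass it (0.43 ± 0.21, 0.168, and 0.75 ± 0.21, 0.0638).

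Other genes of the chromosome 13 region were set beside the members. Of 40 neighbours that lie between the members or within 250 kb outside them, 12 were tested. Smad4 with TGFβ1 had 1 of them called lower and 0 higher, against 1.80% and 1.31% of all genes. None was called for Smad4 with SB505124 or for TGFβ1 in either Smad4 state. *Gm6093*, at 33562486 and the tested gene nearest to *Serpinb9g*, was at 5.29 (off) and 1.03 CPM (on) with SB505124 and 10.7 and 1.68 CPM with TGFβ1 in B73, and at 0.527, 0.125, 5.23 and 0.918 CPM in B87. Its Smad4 effect was -2.66 ± 0.58 with TGFβ1 (edgeR adjusted p 0.0437) and -2.22 ± 0.67 with SB505124 (0.224). This call was not followed through the alternative fits. *AL589871.1* and *Gm36099*, beside *Serpinb9* and *Serpinb9b*, had log2 fold changes of -1.05 and -1.04 with TGFβ1 and were not called. *Gm36099* overlaps *Serpinb9b* on the opposite strand and had 20 to 107 counts, and with the strand setting not stated their reads cannot be told apart. *Wrnip1*, just outside the cluster at one end, and *Ripk1*, which overlaps its other end, were at -0.11 and 0.06. On chromosome 1, 2 of 12 neighbours were tested (*Kdsr* and *Vps4b*) and none was called.

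**Figure D5:**
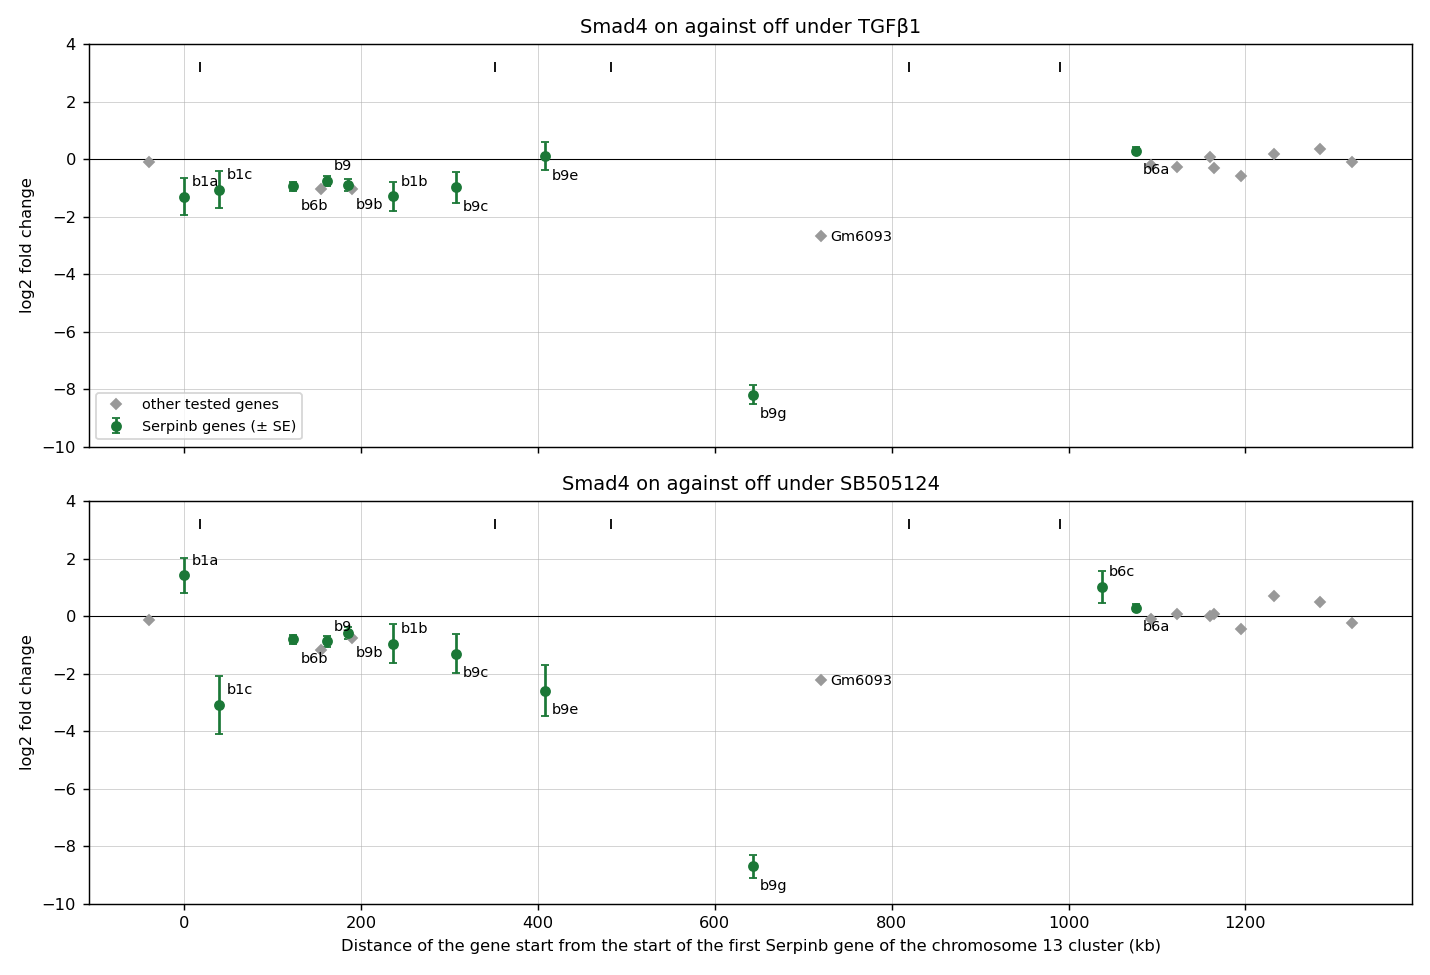
Log2 fold change of Smad4 on against off with TGFβ1 (top) and SB505124 (bottom) along the chromosome 13 cluster, against distance from the first Serpinb gene in kb. Circles are detected Serpinb genes with ± SE (b9g is *Serpinb9g*), diamonds are other tested genes, ticks are members that were not detected, and *Serpinb6c* is left out of the top panel. *Serpinb9g* stands lowest, *Gm6093*, the tested gene nearest to it, is the lowest diamond in both panels, and *Serpinb6a* at the far end is above 0 in both panels.

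*Serpinb6a*, the widely expressed *Serpinb6* gene and an inhibitor of cathepsin G, changed little. It was at 641, 907, 759 and 952 CPM in B73 (Smad4 off and on with SB505124, then off and on with TGFβ1) and at 566, 596, 675 and 811 CPM in B87. The largest of its 4 log2 fold changes was 0.30 ± 0.12, and none was called. Other genes held 22.0% of its 75-base stretches, and 11.7% were in *Nqo2* on the opposite strand, whose 772 to 1255 counts are few beside the 12838 to 18645 of *Serpinb6a*.

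*Serpinb6c* was seen almost only with SB505124. It had 11 and 20 counts (Smad4 off, on) in B73 and 6 and 14 in B87 with the inhibitor, and 0 and 0 in B73 and 1 and 1 in B87 with TGFβ1. The groups did not overlap, but only SB505124 libraries reached 10 counts. The detection rule thus took the gene in through that treatment alone, and the lack of overlap is partly built in. In Smad4-on cells it was called lower with TGFβ1 (edgeR adjusted p 0.00967, 0.0414 with no replicate block), at least 5.23-fold in B73 and 11.4-fold in B87 (1.74 to 483). The call was lost without the B73 Smad4-on library of either treatment (adjusted p up to 0.0871). In Smad4-off cells the adjusted p was 0.0582.

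*Serpinb1a* encodes the main mouse counterpart of the neutrophil elastase inhibitor, and it was the member whose Smad4 effect differed between the lines. In B73 it was at 20.5 (off) and 95.7 CPM (on) with SB505124 and at 21.4 and 19.9 CPM with TGFβ1. In B87 it was at 11.8 and 15.1 CPM with SB505124 and at 21.0 and 3.52 CPM with TGFβ1. So B73 had 1 high library, Smad4 on with SB505124, and B87 had 1 low library, Smad4 on with TGFβ1. The Smad4 effect was 2.22 in B73 and 0.35 in B87 with SB505124, and -0.11 and -2.55 with TGFβ1, as log2 fold changes. In the fit over both lines it was 1.41 ± 0.61 with SB505124 (edgeR adjusted p 0.403) and -1.30 ± 0.64 with TGFβ1 (0.271), with an interaction of -2.72 ± 0.86 (unadjusted p 0.0163, adjusted 0.318). The test of a different Smad4 effect in the 2 lines gave -2.21 ± 0.26 for B87 against B73 (adjusted p 0.0329), where 0.196% of all genes were called higher and 0.196% lower. It was the only member called, and the call was lost without either Smad4-on SB505124 library (adjusted p up to 0.0604).

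The TGFβ1 effect on *Serpinb1a* in Smad4-on cells was alike in the lines, 4.81-fold lower in B73 and 4.28-fold lower in B87. Its log2 fold change was -2.16 ± 0.62 (edgeR adjusted p 0.0353, 0.207 with no replicate block). The call was lost without the B73 Smad4-on SB505124, the B73 Smad4-on TGFβ1 or the B87 Smad4-on TGFβ1 library, with adjusted p up to 0.295 and a log2 fold change between -3.05 and -1.10. In Smad4-off cells *Serpinb1a* was at 1.05-fold in B73 and 1.78-fold in B87, and was not called (0.56 ± 0.61, adjusted p 0.60).

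The other *Serpinb1* paralogs were near the limit of detection. *Serpinb1c* was at 0.299, 0.162, 0.986 and 0.612 CPM in B73 and at 1.01, 0, 1.54 and 0.561 CPM in B87, lower with Smad4 on in each pair of libraries, and it was not called in any comparison. *Serpinb1b* ran from 0.0832 to 0.548 CPM and was not called either. It was highest in the Smad4-off TGFβ1 library of both lines, at 11 counts in each. No other library reached 10 counts, so the detection rule took the gene in through these alone and settled that order.

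*Serpinb9e* and *Serpinb9c* were at or below about 1 CPM. Of their 75-base stretches, 17.5% and 17.0% occur in other genes, so these low counts may hold reads of paralogs. *Serpinb9e* was at 0.549, 0.108, 1.03 and 0.919 CPM in B73 and at 0.132, 0, 0.448 and 0.612 CPM in B87. It was called higher with TGFβ1 in Smad4-on cells (edgeR adjusted p 0.0099, 0.0866 with no replicate block), 8.50-fold in B73 (18 against 2 counts, 2.04 to 75.5) and at least 3.41-fold in B87. The SB505124 libraries alone would not have met the detection rule, and of the Smad4-on libraries only those with TGFβ1 reached 10 counts. This difference is thus partly built in. The Smad4 effect on *Serpinb9e* with TGFβ1 was 0.10 ± 0.48, beside -8.20 for *Serpinb9g*, whose start-site window is 94.7% identical. With SB505124 it was -2.60 ± 0.89 for *Serpinb9e*, not called (edgeR adjusted p 0.284), beside -8.70 for *Serpinb9g*. That value rests on 2 against 11 counts in B73 and 0 against 3 in B87. *Serpinb9c* was at 0.599, 0.162, 0.986 and 0.561 CPM in B73 and at 0.0879, 0.0832, 0.199 and 0.0510 CPM in B87, so every B73 library but 1 lay above every B87 library. Only B73 libraries reached 10 counts, so the detection rule took *Serpinb9c* in through that line alone and this order is partly built in. It was called lower in B87 (-2.35 ± 0.44, adjusted p 0.0118), a call lost in DESeq2 (adjusted p 0.0578) and without the Smad4-off TGFβ1 library of either line (up to 0.0709). *Serpinb9c* and *Serpinb9g* were the 2 members called between the lines, both lower in B87, against 3.87% of all genes higher and 4.50% lower in B87. The epithelial and fibroblast marker sums also differ between the lines (5 of 7 epithelial markers lower and of 4 tested fibroblast markers 3 higher and 1 lower in B87), and their part in these differences was not tested. No member, and none of the 14301 genes tested (0% higher, 0% lower), was called by edgeR for a TGFβ1 effect that differs between the lines. At an unadjusted p under 0.05 there were 4 members and 1198 genes. DESeq2 with the line called no member, and 14 genes higher and 10 lower, and edgeR with no filter on low counts called 51 and 29 genes and again no member.

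On chromosome 1, *Serpinb5* and *Serpinb2* were highest when Smad4 was on and TGFβ1 was given. *Serpinb5* encodes maspin, a noninhibitory serpin of epithelial cells. It was at 0.15 (off) and 1.78 CPM (on) with SB505124 and at 0.171 and 6.58 CPM with TGFβ1 in B73, and at 0.0879, 0.0416, 0.349 and 2.70 CPM in B87. The 2 Smad4-on TGFβ1 libraries were the highest of the 8, and the lines differed with SB505124, where Smad4-on B73 had 33 counts and Smad4-on B87 had 1. Only Smad4-on libraries reached 10 counts, so the detection rule took *Serpinb5* in through that state alone. With TGFβ1 the Smad4 effect was 4.11 ± 0.91 (edgeR adjusted p 0.0447), from 4 to 129 counts in B73 and from 7 to 53 in B87, which is 38.4-fold (14.6 to 143) and 7.75-fold (3.51 to 20.2). With SB505124 it was not called (2.59 ± 1.20, adjusted p 0.437), at 11.9-fold in B73 and 0.473-fold in B87. TGFβ1 raised *Serpinb5* in Smad4-on cells (2.64 ± 0.76, adjusted p 0.0364). These calls had little margin, and without the replicate block they gave adjusted p-values of 0.302 and 0.257. The Smad4 call was lost in 6 of 8 fits that left out 1 library, all but those without a Smad4-on SB505124 library (adjusted p up to 0.382, log2 fold change 2.57 to 5.57). The TGFβ1 call was lost in 3 of 8, without the B87 Smad4-on library of either treatment or the B73 Smad4-on TGFβ1 library (up to 0.134, log2 fold change 1.67 to 6.12).

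*Serpinb2* encodes plasminogen activator inhibitor 2, which inhibits urokinase and tissue plasminogen activator. It was at 0 (off) and 2.11 CPM (on) with SB505124 and at 0.343 and 5.36 CPM with TGFβ1 in B73, and at 1.10, 3.16, 0.996 and 7.24 CPM in B87. Every Smad4-on library lay above every Smad4-off library. With TGFβ1 the Smad4 effect was 3.36 ± 0.70 (edgeR adjusted p 0.0376), 15.6-fold in B73 (7.65 to 37.2) and 7.27-fold in B87 (4.53 to 12.3). With SB505124 it was 2.38 ± 0.74 and did not pass the threshold (adjusted p 0.235), at least 10.9-fold in B73 and 2.88-fold in B87 (1.81 to 4.72). The interaction was 0.98 ± 1.05 (adjusted p 0.816). With no replicate block the adjusted p with TGFβ1 was 0.375, and the call was lost in 6 of 8 fits that left out 1 library, all but those without a Smad4-off SB505124 library (up to 0.253). *Serpinb2* overlaps *Serpinb10* on the same strand over 6476 bases and shares 9.0% of its 75-base stretches with it, and *Serpinb10* had at most 1 count.

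*Serpinb8*, an inhibitor of furin, responded to TGFβ1 and with little spread between the lines. It was at 20.4 (off) and 31.8 CPM (on) with SB505124 and at 8.70 and 8.78 CPM with TGFβ1 in B73, and at 15.8, 30.3, 9.46 and 9.53 CPM in B87. All 4 TGFβ1 libraries lay between 8.70 and 9.53 CPM, below all 4 SB505124 libraries. In Smad4-on cells TGFβ1 lowered it 3.62-fold in B73 and 3.18-fold in B87 (log2 fold change -1.76 ± 0.16, edgeR adjusted p 0.000419). This call held in every fit that left out 1 library, and without the replicate block (0.00411). In Smad4-off cells the fall was -0.99 ± 0.16 (adjusted p 0.00985), a 1.99-fold change that missed the fold threshold. The Smad4 effect was 0.01 ± 0.16 with TGFβ1 (adjusted p 0.972) and 0.78 ± 0.15 with SB505124 (0.0707), and the interaction was -0.77 ± 0.22 (unadjusted p 0.0109, adjusted 0.288).

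Candidate target proteases of the clade, a list of 49 genes, held 23 tested genes. With TGFβ1, Smad4 raised 2 and lowered 3 of them, against 1.31% and 1.80% of all genes. With SB505124 it raised 1 and lowered 2, against 0.636% and 0.455%. TGFβ1 raised 3 and lowered 4 in Smad4-on cells, against 5.62% and 8.31% of all genes. In Smad4-off cells it raised 1 and lowered 2, against 3.11% and 2.82%. The list's median log2 fold change lay between -0.24 and 0.07 in these 4 comparisons, beside -0.02 to 0.00 over all genes. *Casp4*, an inflammatory caspase, was at 12.7, 0.865, 10.7 and 0.766 CPM in B73 and at 8.39, 1.75, 11.7 and 1.63 CPM in B87, lower with Smad4 on (-3.23 ± 0.42 with TGFβ1, edgeR adjusted p 0.00839, and -3.01 ± 0.42 with SB505124, 0.0216). *Ctse*, the aspartic protease cathepsin E, was higher with Smad4 on (4.26 ± 0.61, 0.0111, and 4.22 ± 0.69, 0.0388), from at most 0.996 CPM in Smad4-off to at least 3.58 CPM in Smad4-on libraries. *Tpsab1*, a mast cell tryptase, rose with Smad4 with TGFβ1 (2.84 ± 0.52, 0.0251). *Ctsw*, cathepsin W, was at 0.0499 to 0.264 CPM with SB505124 and 29.7 to 51.0 CPM with TGFβ1, and was called in both Smad4 states (adjusted p 0.000168 and 0.000662). *Mep1a*, the meprin A alpha subunit, was called lower with TGFβ1 in both states (0.00208 and 0.0195), with both Smad4-on TGFβ1 libraries at 0.

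Of 39 serpin genes of other clades, 7 were tested. Smad4 with TGFβ1 raised 0 and lowered 1, against 1.31% and 1.80% of all genes, and with SB505124 none was called (0.636% and 0.455% of all genes). TGFβ1 raised 1 and lowered 2 in Smad4-on cells, against 5.62% and 8.31% of all genes. In Smad4-off cells it raised 0 and lowered 2, against 3.11% and 2.82%. *Serpine2*, protease nexin 1, was the gene that Smad4 lowered (-1.54 ± 0.32, edgeR adjusted p 0.0376), with 1.41 and 0.561 CPM (off, on) in B73 and 32.9 and 10.6 CPM in B87. *Serpini1*, neuroserpin, was higher with TGFβ1 in Smad4-on cells (1.53 ± 0.31, 0.0103). *Serpina3n* was called lower with TGFβ1 in both Smad4 states (0.0038 and 0.0424), and was listed at 0 in 3 of the 4 TGFβ1 libraries and at 0.349 to 2.58 CPM with SB505124.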

How the data were processed

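The authors made stranded poly(A) libraries, sequenced them as 75-base single-end reads, and processed them with FastQC 0.11.5, Trimmomatic 0.36, STAR 2.5.3a and featureCounts 1.6.3 on GRCm38 with Ensembl release 91 (versions from the paper's methods and the submitters' processing notes). The deposited table holds raw counts per gene, 1 column per library. How strand and multiply aligned reads were treated is not given in the sources used here. Groups came from the sample titles.

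Counts were tested with edgeR 4.0.16 in R 4.3.3 (TMM, filterByExpr, quasi-likelihood F-test, 4 groups plus the line). The study used DESeq2 and named no covariate. The line was added because each line went through all 4 conditions, and deviations of the lines from the group means correlated between groups at 0.642 to 0.774 (median 0.758, 6 pairs). SEs were approximated as |log2 fold change|/√F. CPM used TMM-scaled totals. Folds per line are ratios of CPM with Clopper-Pearson intervals at 95%, and against 0 counts the lower limit of that interval is given. Log2 fold changes per line added a prior count. Shared 75-base stretches and exon lengths came from GENCODE M21, and start-site windows from RefSeq. The code was tested on simulated data.

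Members and lists were chosen with earlier results of these data known. All detected members are named, and those with a group mean of at least 1 CPM or a call have every value printed. Of the lists, at most 5 called genes with a mean of 1 CPM in a group are named, by the largest change. The other-serpin list leaves out 1 gene. The alternatives were no replicate block, DESeq2 1.42.0 with and without the line, DESeq2 size factors, no filter, no fold rule, 10 counts required in all libraries, fits of the 4 libraries of a comparison alone, and omission of each library in turn.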

Additional observations from a re-analysis of the deposited data

Results flagged for a closer look

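*Serpinb1a* was the only result marked for a closer look, because its Smad4 effect differed between the lines by a test of the difference itself. The line-by-Smad4 term was -2.21 on the log2 scale (SE 0.26, edgeR adjusted p 0.0329), meaning a lower Smad4 effect in B87 than in B73. In B73 the effect was 2.22 with SB505124 and -0.11 with TGFβ1, and in B87 it was 0.35 and -2.55, so B87 lay below B73 in both treatments. With 1 library per line and condition, what differs between the lines cannot be told apart from what differs between single cultures. Without the B73 or the B87 Smad4-on SB505124 library the term was not called (adjusted p up to 0.0604), and over all fits that left out 1 library it lay between -2.57 and -1.82. DESeq2 gave an adjusted p of 3.21e-07.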

How the results depend on the processing

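Of the results compared, those called in the main or the alternative fit kept their direction. Fits that left out 1 library were compared only for results called in the main fit. The direction of results called in neither fit was not checked. No alternative scaling moved the median of all genes by more than 0.1 on the log2 scale. In edgeR, the counts of called members with and without the replicate block were 3 and 0 for Smad4 with TGFβ1, 1 and 0 for Smad4 with SB505124, 6 and 3 for TGFβ1 in Smad4-on cells, and 2 and 0 for TGFβ1 in Smad4-off cells. DESeq2 with no replicate block called 2 members for Smad4 with TGFβ1, 1 with SB505124, 2 for TGFβ1 in Smad4-on cells and 1 in Smad4-off cells. With no filter on low counts the counts in edgeR were 4 for Smad4 with SB505124, 10 for TGFβ1 in Smad4-on cells, 1 for the interaction (*Serpinb1a*), 5 between the lines and 2 for the line-by-Smad4 term. Requiring 10 counts in every library, which leaves the low members untested, gave 0 for Smad4 with TGFβ1, 0 for Smad4 with SB505124, 3 for TGFβ1 in Smad4-on cells, 1 in Smad4-off cells, 0 between the lines and 0 for the line-by-Smad4 term. Without the fold rule, 4 members passed for TGFβ1 in Smad4-off cells, and DESeq2 with the line called 1 between the lines. The cause of these shifts was not tested, apart from the members left untested. Leaving out 1 library gave 1 to 3 members for Smad4 with TGFβ1, 1 to 2 with SB505124, 3 to 8 for TGFβ1 in Smad4-on cells, 1 to 2 in Smad4-off cells and 0 to 2 for the line-by-Smad4 term.

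Depth limits the low members: at 3 counts per library, falls of *Serpinb6c*, *Serpinb1c* and *Serpinb9e* below about 0.15 CPM could not be followed. Of the results for single members, DESeq2 size factors left 73 of 73 on the same side of the threshold, DESeq2 with the line 71, and edgeR with no replicate block 61 of 70, with 9 lost.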

Other observations

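*Serpinb9h*, listed in the table as *Gm11397* (chromosome 13, 33395673 to 33405145), is a clade B serpin that the name rule does not take in. It had 0 counts in every library and shares 53.7% of its 75-base stretches with *Serpinb9f*.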
